A study of Homo sapiens with 18 samples.

Results

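The genes described here are the AKR1B and AKR1C members of the aldo-keto reductase superfamily, AKR1B1, AKR1B10, AKR1C1, AKR1C2, AKR1C3 and AKR1C4. Their probes were found by gene name among the non-control spots of the array. Spots carried the names of 5 of the 6 genes, on 9 of the 50599 probes, and no spot carried the name AKR1C2. The array has 36204 gene names in all. The genes were selected on the measured rise of AKR1C1 in HTOXAR3 cells when Curcumin was added to OXA, so every comparison that uses treated HTOXAR3 cells is given for them as a description, with no test.

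Total RNA of 2 cell lines was measured on 18 single-colour arrays, with 3 biological replicates in each of 6 groups. The parental line, HT29, comes from a human colorectal adenocarcinoma. Its subline HTOXAR3 acquired resistance to oxaliplatin (OXA) while kept under rising OXA doses, so that resistance is represented by a single line. Both lines were left untreated, treated for 24 h with OXA, or treated for 24 h with OXA plus Curcumin. OXA was used at 10 µM in HT29 and at 30 µM in HTOXAR3, and Curcumin at 10 µM in both, so that the lines after treatment also differ in the dose of OXA. Cells given Curcumin alone were not analysed here.

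Aldo-keto reductases reduce aldehydes and ketones to alcohols with NADPH as the electron donor. AKR1B1 (aldose reductase) turns glucose into sorbitol, and AKR1B10 reduces retinal and reactive lipid aldehydes. The AKR1C enzymes are hydroxysteroid dehydrogenases: AKR1C1 inactivates progesterone, AKR1C3 forms testosterone and prostaglandin F and AKR1C4 takes part in bile acid synthesis in the liver. Several of these genes are known targets of NRF2, the transcription factor that KEAP1 holds back in unstressed cells and that electrophiles release.

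Because AKR1C1 and AKR1C2 are near-identical copies and the other AKR1C genes are related to them, the sequences read by their probes are shown first. The brightest AKR1C1 probe is A_23_P257971. The brightest AKR1B10 probe, A_24_P129341 (chr7:134225799-134225858, GRCh37, plus strand), covers the end of the AKR1B10 coding sequence. It is printed up to its stop codon, in capitals, and the 17 bases that follow lie in the 3′ untranslated region.
AKR1B10, A_24_P129341: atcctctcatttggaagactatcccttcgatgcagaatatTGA

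Another AKR1C1 probe, A_24_P152968 (chr10:5005636-5005695, GRCh37, plus strand), lies at the start of the coding sequence, and the array's annotation lists an AKR1C2 transcript for it as well. It is shown with the stretch of AKR1C2 that RefSeq's start-site window holds (chr10:5003808-5003836, GRCh38.p14, minus strand). Over these 29 bases they differ by 1 substitution, T16C (counted from 1 at the 5′ end of the probe, probe base first), which the capitals mark.
AKR1C1, A_24_P152968: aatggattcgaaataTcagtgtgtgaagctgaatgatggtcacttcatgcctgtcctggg
AKR1C2, RefSeq: aatggattcgaaataCcagtgtgtgaagc

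The 2 probes of AKR1C4 read nearly the same place. A_33_P3272291 (chr10:5246396-5246455) and A_23_P149926 (chr10:5246427-5247749, across an intron) share the bases in capitals.
AKR1C4, A_33_P3272291: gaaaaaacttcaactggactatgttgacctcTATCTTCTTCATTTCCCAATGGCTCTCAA
AKR1C4, A_23_P149926: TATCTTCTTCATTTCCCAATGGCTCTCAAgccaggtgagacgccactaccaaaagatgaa

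AKR1B1 and AKR1C3 have 1 probe each, at chr7:134130061-134132097 (GRCh37, minus strand, across an intron) and chr10:5147789-5147848 (GRCh37, plus strand).
AKR1B1, A_23_P258190: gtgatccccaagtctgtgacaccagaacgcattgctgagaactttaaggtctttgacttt
AKR1C3, A_23_P138541: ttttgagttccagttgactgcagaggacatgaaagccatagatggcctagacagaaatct

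Unless another probe is named, values are the log2 intensity of the brightest probe of each gene after quantile normalization. These 5 probes were well above background on all 18 arrays. A gene was called when its limma p, adjusted over all gene names by the method of Benjamini and Yekutieli (BY), was below 0.05 and its fold change above 1.2. Levels of different genes come from different probes and are not compared.

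Without drug, all 5 measured genes had lower levels in HTOXAR3 than in HT29, with the largest differences in AKR1B10 and AKR1B1. The differences in this comparison share no array with the treated HTOXAR3 groups from which AKR1C1 was chosen. Their standard errors and p-values rest on the spread shared by all groups, those treated groups included. AKR1B10 stood at 14.87, 14.97 and 14.53 in untreated HT29 and at 11.98, 11.88 and 11.93 in untreated HTOXAR3. It was 7.25-fold lower in HTOXAR3 (log2 difference -2.86, SE 0.10, n = 3 arrays in each line, limma BY adjusted p = 9.81e-10). The other AKR1B10 probe gave -2.87 (SE 0.09). In RNA of whole cultures, fewer cells with a transcript and less of it per cell cannot be told apart.

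AKR1B1 stood at 13.62, 13.67 and 13.40 in untreated HT29 against 10.79, 10.77 and 10.79 in untreated HTOXAR3. It was 6.87-fold lower in the resistant line (-2.78, SE 0.09, limma BY adjusted p = 6.32e-10). For neither gene did the arrays of the lines overlap.

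AKR1C1 stood at 10.22, 10.40 and 9.37 in untreated HT29 and at 7.47, 7.50 and 7.39 in untreated HTOXAR3. The HT29 replicates were more dispersed (SD 0.55) than those of HTOXAR3 (SD 0.06), replicate 3 being the lowest, yet every HT29 array was above every HTOXAR3 array. The gene was 5.84-fold lower in HTOXAR3 (-2.55, SE 0.19, limma BY adjusted p = 2.51e-06). Fitted to the arrays of these groups alone, its adjusted p was 0.0537.

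By its brightest probe AKR1C1 differed more than AKR1C3 and AKR1C4, and its probe A_24_P152968 gave -1.57. AKR1C3 stood at 14.41, 14.45 and 14.24 in untreated HT29 and at 13.24, 13.18 and 13.23 in untreated HTOXAR3 (2.22-fold lower, log2 difference -1.15, SE 0.08). AKR1C4 stood at 8.85, 8.95 and 8.58 against 7.52, 7.38 and 7.28 (2.63-fold lower, -1.40, SE 0.14). Both were called. None of the 5 genes overlapped between the lines, and 16.4% of all gene names lay lower in HTOXAR3 without overlap. In all, 5 of the 5 measured genes were called lower, with a median difference of -2.55 on the log2 scale, where 5.28% of all gene names were called lower and 6.26% higher.

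Markers of colorectal epithelium were measured on the same arrays. EPCAM stood at 16.39 ± 0.04 (SD, n = 3) in untreated HT29 and 16.20 ± 0.02 in untreated HTOXAR3, and VIL1, the microvillus protein villin, at 12.06 ± 0.07 and 10.45 ± 0.05. Of 12 epithelial markers, 3 were called lower in HTOXAR3 (VIL1, LGALS4 and CDH17) and 0 higher, against 5.28% and 6.26% of all gene names. CDH17 was well above background on 2 of 3 untreated HT29 arrays and on 0 untreated HTOXAR3 arrays. The 9 not called included EPCAM and the keratins KRT8 (0.17), KRT18 (0.14) and KRT19 (0.13). They also included CDX2, at 7.10 ± 0.77 in untreated HT29 and 4.93 ± 1.46 in untreated HTOXAR3, where 1 of 3 arrays was well above background. The part of the 3 lower markers in the differences of the AKR genes was not tested.

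**Figure D1:**
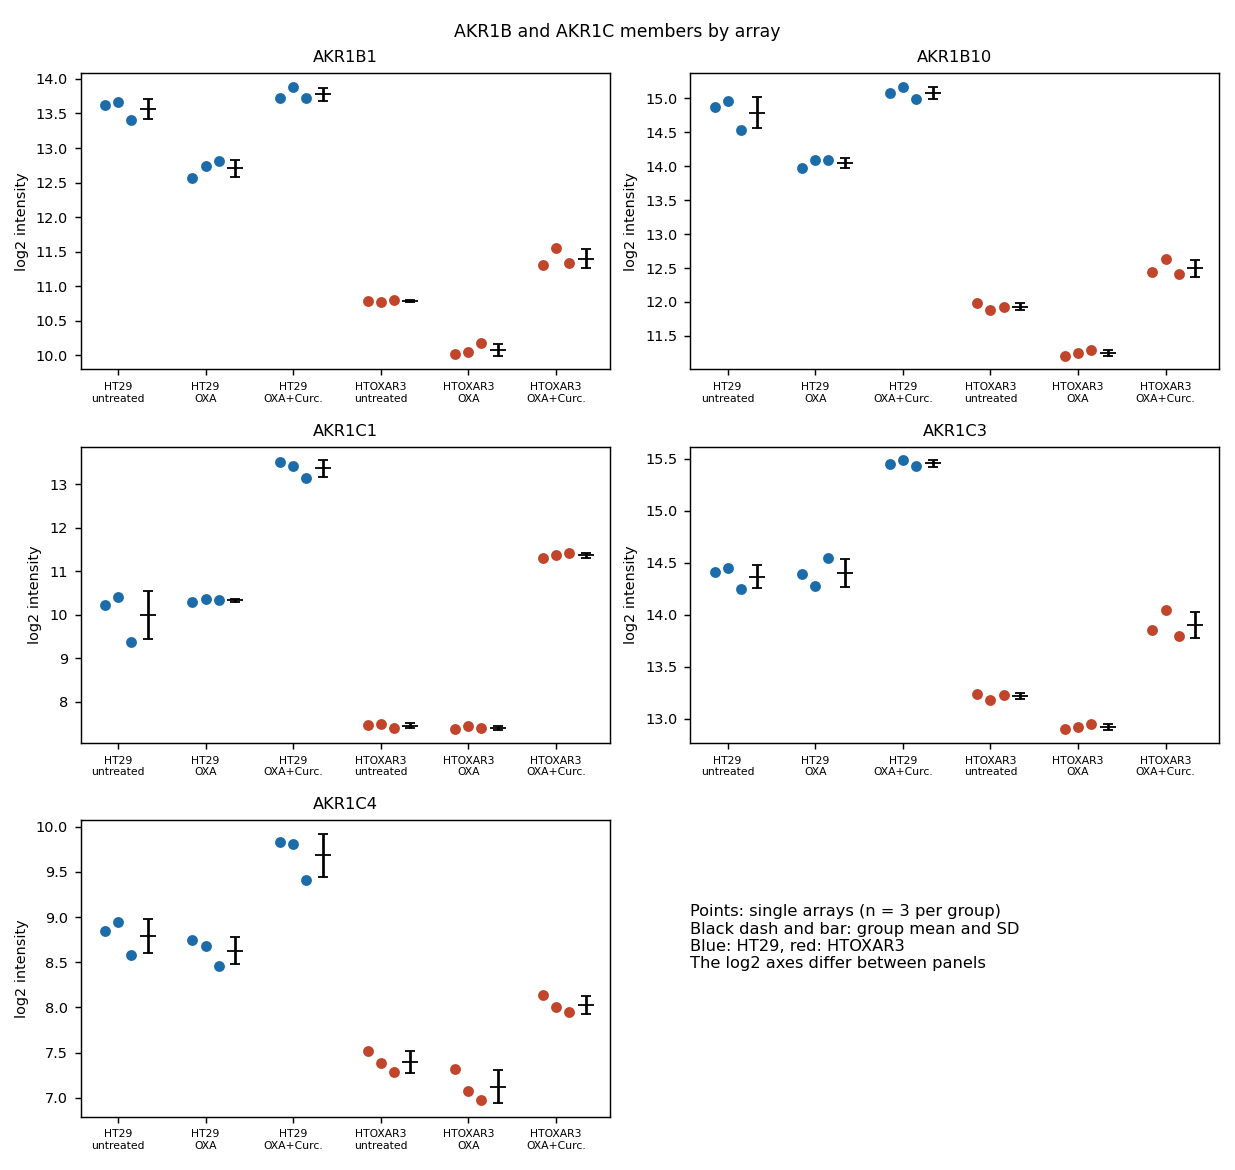
log2 intensity of AKR1B1, AKR1B10, AKR1C1, AKR1C3 and AKR1C4 on each of the 18 arrays by group, with the group mean and SD. In every panel the untreated HTOXAR3 arrays lie below the untreated HT29 arrays, and the arrays with OXA plus Curcumin lie above those with OXA of the same line, as for AKR1C1 in HT29 (13.36 against 10.33).

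After OXA alone in HT29, both AKR1B genes fell and no AKR1C gene was called. AKR1B1 fell to 12.57, 12.75 and 12.81 after OXA, below all untreated arrays (log2 difference -0.86, 1.81-fold, SE 0.09, limma BY adjusted p = 8.92e-05). AKR1B10 fell to 13.97, 14.09 and 14.09, also below all untreated arrays (-0.74, 1.67-fold, SE 0.10, limma BY adjusted p = 0.000637). AKR1C1 stood at 10.29, 10.37 and 10.33 after OXA, within the range of the untreated arrays (0.33, 95% interval -0.07 to 0.74). AKR1C3 differed by 0.04 (interval -0.14 to 0.21) and AKR1C4 by -0.16 (interval -0.45 to 0.13).

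In this comparison 2 of 5 genes were called lower and 0 higher, where 7.62% of all gene names were called lower and 8.33% higher. The calls rest on the spread shared by all groups: fitted to the arrays of untreated and OXA-treated HT29 alone, the adjusted p was 0.078 for AKR1B1 and 0.203 for AKR1B10. Within each of the 3 slides both genes were lower after OXA, by -1.05, -0.93 and -0.59 for AKR1B1 and -0.90, -0.88 and -0.44 for AKR1B10.

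Values in OXA-treated HTOXAR3 are a description. AKR1B1 stood at 10.01, 10.04 and 10.18 (-0.71 from untreated) and AKR1B10 at 11.20, 11.25 and 11.29 (-0.68), each below all untreated HTOXAR3 arrays. AKR1C1 stood at 7.37, 7.45 and 7.39, overlapping the untreated arrays (-0.05). Of all gene names 4.94% were called lower and 5.31% higher here, and no call is given for the AKR genes.

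Adding Curcumin to OXA raised all 5 measured genes in HT29 by their brightest probes. The differences use no HTOXAR3 array, but their standard errors and p-values rest on the spread shared by all groups, treated HTOXAR3 included. The other AKR1C4 probe, A_23_P149926, was well above background on all 6 arrays compared and gave 0.00 (95% interval -0.40 to 0.39). AKR1C1 changed most. It stood at 13.51, 13.41 and 13.15 with OXA plus Curcumin, against the 10.29 to 10.37 of OXA alone, an 8.15-fold rise (log2 difference 3.03, SE 0.19, limma BY adjusted p = 3.61e-06). Within slides 2 and 3, which hold both groups, the difference was 3.09 and 2.82.

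The other 4 genes rose by 1.03 to 1.07 on the log2 scale. AKR1B1 reached 13.72, 13.89 and 13.73 (1.07, 2.10-fold, SE 0.09, limma BY adjusted p = 6.71e-05). AKR1B10 reached 15.08, 15.17 and 14.99 (1.03, 2.05-fold, SE 0.10, limma BY adjusted p = 0.00015). Both AKR1B genes lay above every array with OXA alone. AKR1C3 reached 15.45, 15.49 and 15.43 (1.05, 2.07-fold, SE 0.08, limma BY adjusted p = 2.21e-05). AKR1C4 reached 9.83, 9.81 and 9.41, against 8.75, 8.68 and 8.46 with OXA alone (1.06, 2.08-fold, SE 0.14, limma BY adjusted p = 0.00174). For none of the 5 genes did the groups overlap, and 12.6% of all gene names lay higher with OXA plus Curcumin without overlap.

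By the brightest probes, called genes were 5 of 5 higher and 0 lower, with a median difference of 1.06, where 3.14% of all gene names were called higher and 2.39% lower. Fitted to the arrays of these 2 groups alone, only AKR1C1 remained called, when 16 of all gene names were called in place of 2002.

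**Figure D2:**
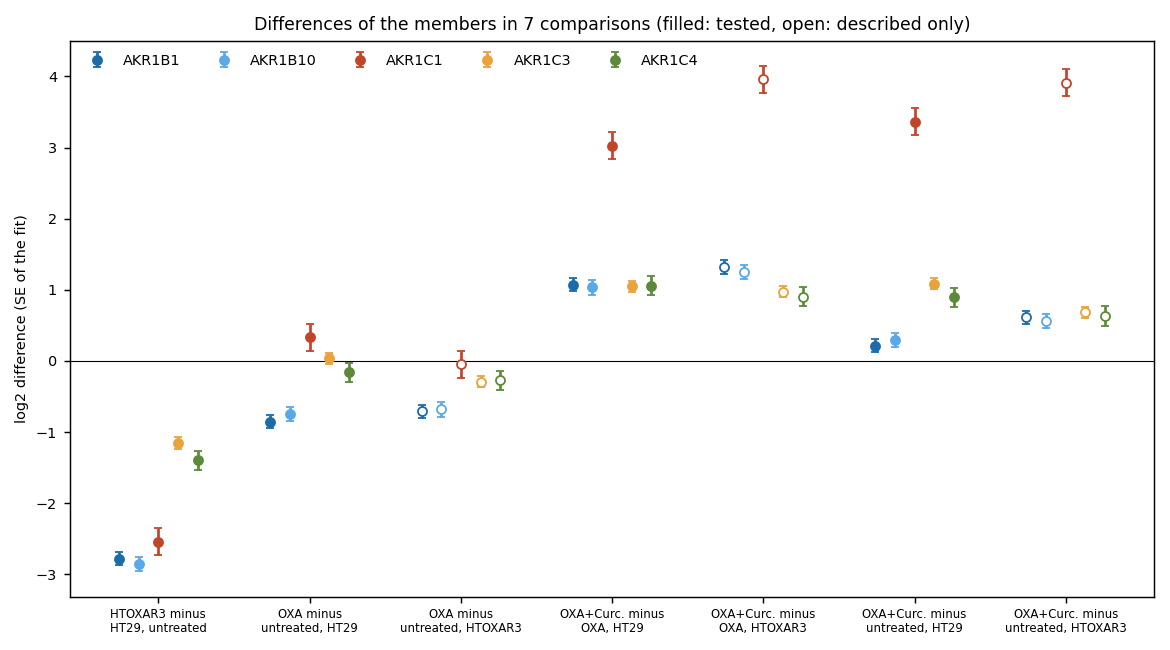
log2 differences with the standard error of the fit for the 5 measured genes in 7 comparisons. Filled points were tested and open points, which use treated HTOXAR3 arrays, are described only. When Curcumin was added to OXA, AKR1C1 lies highest (3.03 in HT29 and 3.96 in HTOXAR3), and the other genes lie between 1.03 and 1.07 in HT29 and between 0.91 and 1.32 in HTOXAR3.

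With OXA plus Curcumin, the 3 AKR1C genes were called above untreated HT29 and the AKR1B genes were not. AKR1C1 was 10.27-fold higher (log2 difference 3.36, SE 0.19, limma BY adjusted p = 1.35e-07), AKR1C3 was 2.12-fold higher (1.09, SE 0.08) and AKR1C4 1.86-fold higher (0.90, SE 0.14, limma BY adjusted p = 0.00156). AKR1B1 differed from untreated by 0.22 (interval 0.01 to 0.42) and AKR1B10 by 0.29 (interval 0.08 to 0.51), and neither was called (adjusted p = 1 and 0.476 in limma). These calls depended on settings for 2 genes: AKR1C4 was not called with the mean of its probes (adjusted p = 0.0765 in limma) or in a fit to these groups alone (adjusted p = 0.159), its probe A_23_P149926 gave -0.04, and AKR1B10 was called with Benjamini-Hochberg adjustment (adjusted p = 0.0429 in limma). Called genes were 3 of 5 higher and 0 lower, where 9.56% of all gene names were called higher and 9.02% lower. This comparison shares its arrays with the previous ones, so that the differences of a gene add up.

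The values in HTOXAR3 with OXA plus Curcumin include the contrast by which AKR1C1 was chosen, and support nothing by themselves. AKR1C1 stood at 11.30, 11.37 and 11.41, against 7.37, 7.45 and 7.39 with OXA alone, a difference of 3.96 (15.54-fold). AKR1B1 was higher by 1.32, AKR1B10 by 1.25, AKR1C3 by 0.98 and AKR1C4 by 0.91. Of all gene names 4.43% were called higher and 4.41% lower, and no call is given for the AKR genes. Compared with untreated HTOXAR3, AKR1C1 was higher by 3.91 and the other genes by 0.57 to 0.68. Of all gene names 8.82% were called higher and 8.64% lower in this comparison, again with no call given for the AKR genes.

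None of the 5 genes in HTOXAR3 with OXA plus Curcumin reached its level in HT29 with the same drugs. AKR1C1 was 3.99-fold lower, AKR1B1 5.21-fold lower and AKR1B10 6.00-fold lower, with different doses of OXA in the lines. From the lowest group to the highest, AKR1C1 levels were ordered as HTOXAR3 with OXA (7.40 ± 0.04) and untreated HTOXAR3 (7.45 ± 0.06), which overlapped, then untreated HT29 (10.00 ± 0.55) and HT29 with OXA (10.33 ± 0.04), which overlapped too, then HTOXAR3 with OXA plus Curcumin (11.36 ± 0.06) and HT29 with OXA plus Curcumin (13.36 ± 0.19; SD, n = 3 in each).

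The probes of AKR1C1 gave different sizes. The start-codon probe A_24_P152968, whose sequence above is 1 base away from AKR1C2 where they can be compared, put AKR1C1 2.97-fold lower in untreated HTOXAR3 (log2 difference -1.57, SE 0.15) against 5.84-fold by A_23_P257971. For the addition of Curcumin it gave 2.42 in HT29 (SE 0.15, limma BY adjusted p = 4.03e-06) and 2.54 in HTOXAR3, nearly the same in both lines, where A_23_P257971 gave 3.03 and 3.96. For OXA plus Curcumin against untreated cells it gave 2.44 in HT29 (5.42-fold) and 2.19 in HTOXAR3 (4.55-fold), where A_23_P257971 gave 3.36 (10.27-fold) and 3.91 (15.02-fold). For OXA alone it gave 0.01 in HT29 and -0.35 in HTOXAR3, where its arrays lay below all untreated arrays. The larger value in HTOXAR3 came from A_23_P257971 (line difference 0.93), where A_24_P152968 gave a line difference of 0.11. Over the 18 arrays the probes correlated at r = 0.992. How much AKR1C2 RNA binds either probe was not tested.

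The AKR1C1 probe A_33_P3365117 (chr10:5011936-5011995, GRCh37) was well above background on 4 of 18 arrays, among them all 3 of HT29 with OXA plus Curcumin and none of HT29 with OXA. It was at least 2.37-fold higher there, a bound set by the dimmest probes well above background, with a limma BY adjusted p of 0.307. The AKR1C4 probes disagreed. A_23_P149926, well above background on 8 of 18 arrays, stood at 4.91, 5.16 and 5.20 in HT29 with OXA and at 5.03, 5.05 and 5.17 with OXA plus Curcumin, a difference of 0.00 (95% interval -0.40 to 0.39), where A_33_P3272291 gave 1.06. In untreated HTOXAR3 it was not well above background on any array and at least 1.56-fold lower than in untreated HT29 (limma BY adjusted p = 0.000126). The call of AKR1C4 as raised comes from A_33_P3272291. Whether RNA of AKR1C3 or of another AKR1C gene binds that probe was not tested.

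**Figure D3:**
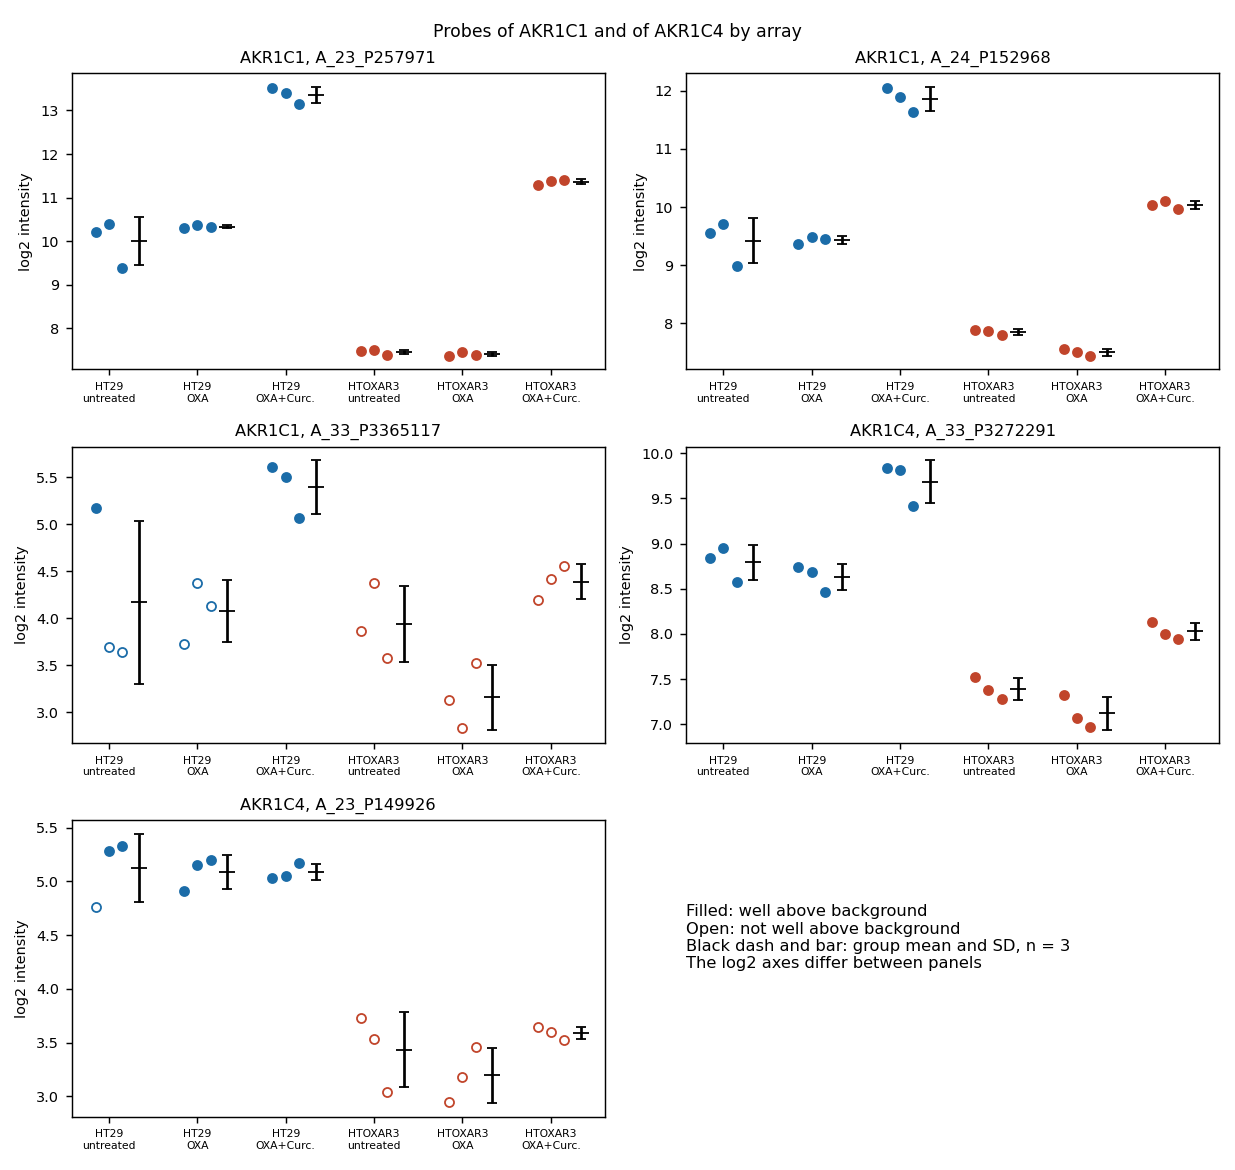
log2 intensity of the 3 AKR1C1 probes and the 2 AKR1C4 probes on each array, with the group mean and SD; open points were not well above background. Both A_23_P257971 and A_24_P152968 put the arrays with OXA plus Curcumin above those with OXA alone (differences of 3.03 and 2.42 in HT29), whereas for AKR1C4 the probes give 1.06 (A_33_P3272291) and 0.00 (A_23_P149926).

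The 5 names whose levels over the 18 arrays were most like those of AKR1C1 were AKR1CL1 (now AKR1C8, another AKR1C gene; Pearson r = 0.996), PSMA1 (a proteasome subunit; 0.990), GPRC5C (0.988), SMIM5 (0.985) and PCDH1 (a protocadherin; 0.981). For AKR1B10 they were AKR1B15 (a paralogue; 1.00), UGDH (UDP-glucose dehydrogenase; 0.988), LAMA5-AS1 (0.987), IMPA1 (inositol monophosphatase; 0.982) and FA2H (fatty acid hydroxylase; 0.982). These were the highest of 17402 names well above background on all arrays, and the 18 points share 6 groups. The array's annotation lists the AKR1B10 transcript for the AKR1B15 probe as well, so that its signal cannot be told apart from that of AKR1B10. By its brighter probe AKR1CL1 stood at 8.70 ± 0.05 with OXA and 11.53 ± 0.19 with OXA plus Curcumin in HT29, and at 5.70 ± 0.14 and 9.51 ± 0.06 in HTOXAR3 (SD, n = 3), and its other probe was well above background on 1 of 18 arrays. Among the members themselves AKR1B1 and AKR1B10 correlated at 0.999 and AKR1C3 and AKR1C4 at 0.980. Across the subfamilies the values ran from 0.761 (AKR1C1 and AKR1B10) to 0.954 (AKR1C4 and AKR1B10). Within AKR1C, AKR1C1 correlated at 0.916 with AKR1C3 and at 0.883 with AKR1C4. How much AKR1B10 RNA binds the AKR1B1 probe was not tested.

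RefSeq's start-site windows (GRCh38.p14, 250 bases before to 50 after each start) were compared because the AKR1C genes rose with Curcumin in HT29, AKR1C4 by 1 of its 2 probes. Aligned over its length, the AKR1C1 window was 93.5% identical to that of AKR1C2, 74.9% and 72.2% to the 2 windows of AKR1C3, 64.7% to that of AKR1C4 and 46.6% and 50.3% to the 2 of AKR1B1. A stretch of 30 bases upstream of the start holds ATTGG, the reverse complement of the CCAAT box, in capitals, at the aligned place in AKR1C1, AKR1C2 and AKR1C3, where AKR1C4 reads ATTGA.
AKR1C1, chr10:4963326-4963355, plus strand: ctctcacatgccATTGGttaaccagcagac
AKR1C2, chr10:5003921-5003950, minus strand: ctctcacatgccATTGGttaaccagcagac
AKR1C3, chr10:5048696-5048725, plus strand: cttttacatgctATTGGttaaccattaggc
AKR1C3, chr10:5094316-5094345, plus strand: ctcctacatgccATTGGttaaccatcagtc
AKR1C4, chr10:5196736-5196765, plus strand: ctcctacatgccATTGAttagccccaggga

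ATTGG on either strand occurred in 34.6% of all 35116 windows. Both AKR1B1 windows held it on the other strand. TGACNNNGC, the core of the antioxidant response element that NRF2 binds, was searched on both strands and occurred in 13.3% of all windows and in none of the AKR1B1, AKR1C1, AKR1C2, AKR1C3 and AKR1C4 windows, which says nothing of sequence outside them.

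Genes of the NRF2 pathway were read from lists. NFE2L2, which encodes NRF2, was not well above background on any array by its brightest probe, so that its level could not be read. Whether that probe reports the transcript was not tested. KEAP1 differed by 0.08 (SE 0.06) when Curcumin was added in HT29 and by 0.17 in HTOXAR3, and was not called. The small MAF genes MAFF, MAFG and MAFK, whose products pair with NRF2, rose in both lines, and MAFF rose by 0.54 in HT29 and 0.88 in HTOXAR3 (limma BY adjusted p = 0.00346 and 3.43e-05). They were 3 of the 6 listed regulators on the array, and 0 regulators fell. Of all gene names 3.14% were called higher and 2.39% lower in HT29, and 4.43% and 4.41% in HTOXAR3.

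Of 21 listed NRF2 targets on the array, 13 rose and 0 fell when Curcumin was added in HT29 (median difference 0.57), and 17 rose and 0 fell in HTOXAR3 (median 0.65), where the median of all gene names was -0.02 in each line. This and the list counts with Curcumin that follow stand beside 3.14% of all gene names called higher and 2.39% lower in HT29, and 4.43% and 4.41% in HTOXAR3. HMOX1 (heme oxygenase) rose by 2.89 and 3.07 (SE 0.11), OSGIN1 by 2.00 and 2.13 (SE 0.12) and FTL (ferritin light chain) by 1.19 and 1.68 (SE 0.06) in HT29 and HTOXAR3. NQO1 (a quinone reductase) rose by 0.59 and 0.76. TXNRD1 (thioredoxin reductase) rose by 0.86 in HTOXAR3 and differed by 0.42 in HT29 (adjusted p = 0.499), and GCLM (glutathione synthesis) was not called in either line (0.29 and 0.40, SE 0.18).

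OXA alone lowered 5 of these 21 targets and raised 0 in each line, where 7.62% of all gene names were called lower in HT29 and 4.94% in HTOXAR3. HMOX1 fell by 1.97 on the log2 scale in HT29 and by 1.86 in HTOXAR3, and NQO1 by 0.74 and 0.57. In untreated cells 2 targets were higher and 6 lower in HTOXAR3, where 6.26% of all gene names were called higher and 5.28% lower. HMOX1 was higher (0.69) and NQO1 lower (-0.53).

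Enzymes that supply NADPH, the electron donor of these reductases, were listed together with TALDO1 and TKT, pentose phosphate enzymes that do not form NADPH themselves. Of 5 genes, 4 rose and 0 fell with Curcumin in HT29 and 3 rose and 0 fell in HTOXAR3. ME1 (malic enzyme) rose by 0.86 and 1.04, IDH1 (isocitrate dehydrogenase) by 0.78 and 0.55 and PGD (phosphogluconate dehydrogenase) by 0.37 and 0.32. TALDO1 rose in HT29 (0.28). In untreated HTOXAR3 3 were lower (IDH1, TALDO1 and TKT) and 0 higher, where 5.28% of all gene names were called lower and 6.26% higher.

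The list of other aldo-keto reductases, which did not include AKR1CL1, had calls in both directions. Of 10 listed, 2 rose and 3 fell with Curcumin in HT29, and 1 rose and 3 fell in HTOXAR3. AKR1B15, the only gene of the list called higher in HTOXAR3, rose by 1.03 and 1.28. With the shared probe annotation given above, this rise cannot be told apart from that of AKR1B10. KCNAB2, a beta subunit of potassium channels, rose by 0.98 in HT29 (limma BY adjusted p = 0.00789) and differed by 0.72 in HTOXAR3 (adjusted p = 0.0509 in limma). AKR7A2, AKR7A3 and AKR7L, aflatoxin aldehyde reductases, fell, AKR7A2 by 0.47 and 0.57. AKR1A1 (aldehyde reductase) differed by 0.02 and 0.00 (SE 0.05) and was lower after OXA in both lines (-0.42 and -0.36). Untreated HTOXAR3 had 4 of the 10 lower, AKR1B15 among them, and 0 higher. Of all gene names 5.28% were called lower and 6.26% higher in the untreated comparison.

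**Figure D4:**
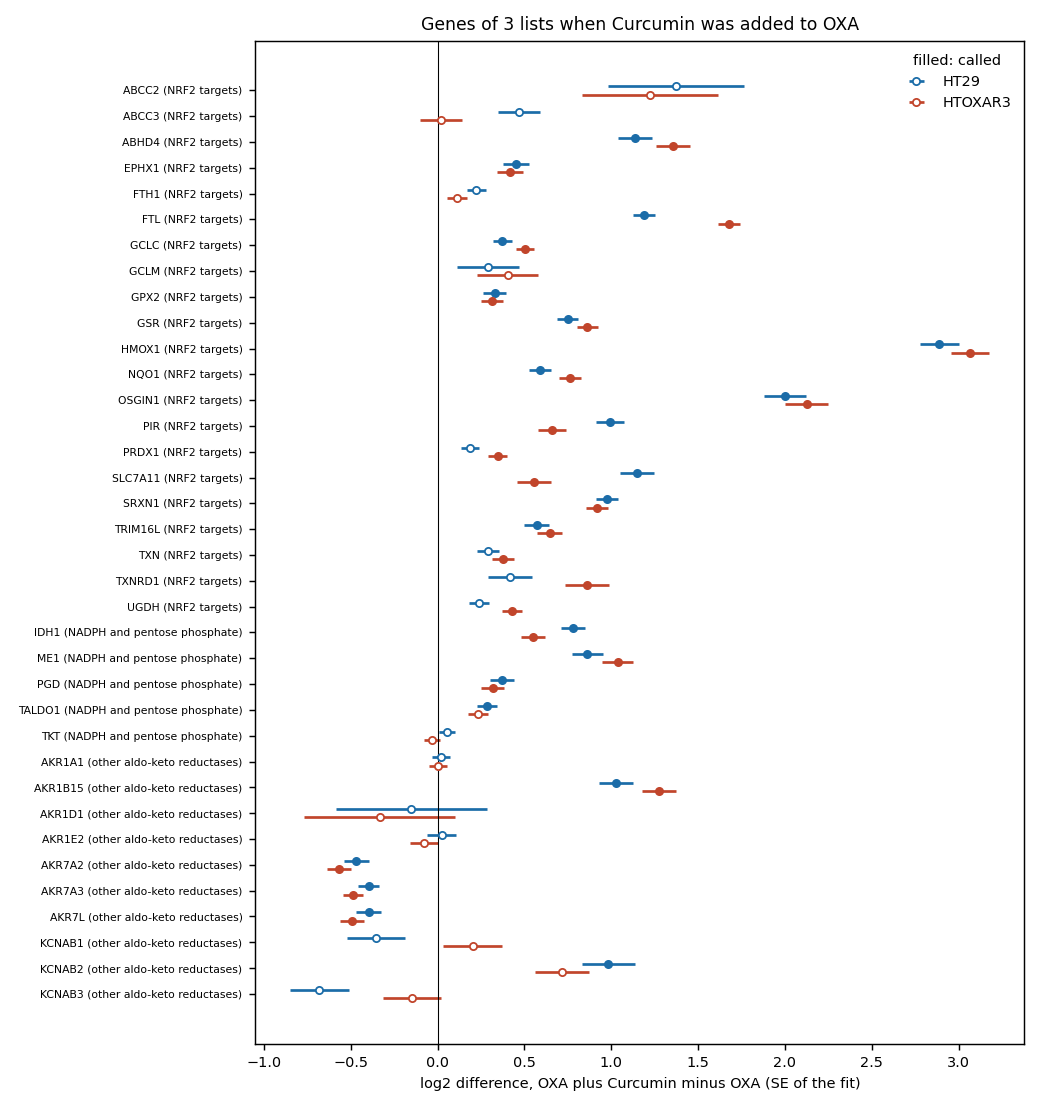
log2 differences, with the standard error of the fit, of the listed NRF2 targets, NADPH-supplying and pentose phosphate enzymes and other aldo-keto reductases when Curcumin was added to OXA, in HT29 and HTOXAR3. Filled points were called. HMOX1 lies farthest to the right (2.89 and 3.07), and the AKR7 genes lie to the left of 0 in both lines.

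Among 19 carbonyl reductases and aldehyde dehydrogenases, 3 rose and 5 fell with Curcumin in HT29, and 5 rose and 5 fell in HTOXAR3. CBR3 (a carbonyl reductase) rose by 2.31 and 1.85 (SE 0.13) and PTGR1 (a prostaglandin and alkenal reductase) by 1.56 and 1.35 (SE 0.06). CBR1 differed by 0.32 in HT29 (adjusted p = 0.0525) and rose by 0.38 in HTOXAR3. In untreated cells 1 was higher in HTOXAR3 (CBR3, by 1.55) and 7 were lower, ALDH3A1 the most (-2.30, SE 0.11). Of all gene names 6.26% were called higher and 5.28% lower in untreated HTOXAR3.

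Genes of 3 pathways in which AKR1B and AKR1C enzymes act were listed too. Of 19 steroid genes 1 rose and 1 fell with Curcumin in HT29, and 1 rose and 3 fell in HTOXAR3. SULT2B1, a steroid sulfotransferase, rose in both (1.07 and 1.06, SE 0.10), and HSD17B2, which oxidises estradiol, fell by 0.90 in HTOXAR3. Of 10 prostaglandin genes 0 rose and 0 fell in HT29, and 1 fell in HTOXAR3, PTGS2 (cyclooxygenase), by 1.06. PTGS2 was 3.33 higher on the log2 scale in untreated HTOXAR3 (SE 0.16). Of 17 retinoid genes 4 rose and 0 fell in HT29, DHRS9 the most (1.29, SE 0.12), and 1 rose and 1 fell in HTOXAR3.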

How the data were processed

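Expression was measured in 18 RNA samples, 3 biological replicates of each of 6 groups of cell line and treatment, taken from the sample labels. The authors labelled total RNA with Cy3, hybridised it to Agilent human arrays and deposited the scanner output, whose mean spot intensity and median local background intensity are not normalized. They also deposited a table of log2 values after their own processing, whose rows carry no gene name and were used for counts of called names only; the authors' notes name limma.

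Mean intensity was corrected for local background with normexp (offset 0) and quantile normalized, which can hide a shift shared by most genes. Control spots and outlier flags were left out, spots of a probe were averaged and the probe with the highest mean represented a gene name. A model with 6 group terms was fitted to all 18 arrays with lmFit and eBayes (limma 3.58.1 in R 4.3.3) and p-values were adjusted over all gene names. Sequences and figures were handled in Python 3.11.15 with matplotlib 3.10.9. The fit was tested on simulated data. With 3 arrays per group their number limits the precision. The arrays lay on 3 slides, and between 52.4% and 63.6% of spots on an array were well above background.

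The members, lists and tests were chosen with earlier results of these data known. A gene of the list of NADPH-supplying and pentose phosphate enzymes and a probe sequence are not reported here. Genes named from a list were NFE2L2, KEAP1, NQO1, HMOX1, GCLM, TXNRD1, CBR1, CBR3 and AKR1A1. As a rule, at most 3 called genes per list and comparison were added. These had the largest differences and signals well above background on all arrays of the comparison. TALDO1, AKR7A3 and AKR7L were named beyond that number in HT29. Epithelial markers were named outside the rule: CDH17 was called without such signals, and EPCAM, CDX2 and the keratins were not called. Names like AKR1C1 and AKR1B10 were the 5 with the highest correlation. Same-numbered replicates were checked as pairs: their deviations correlated above 0.1 in every pair for OXA in HT29 (0.117 to 0.242) and for adding Curcumin in HTOXAR3 (0.109 to 0.195), and not in the other comparisons. Alternatives were other normexp offsets, scalings, probe rules, filters, blocks, adjustments and arrays left out.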

Additional observations from a re-analysis of the deposited data

Results flagged for a closer look

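For AKR1C1 the values after OXA lay on opposite sides of the untreated mean in the lines: each OXA array of HT29 lay above the mean of the untreated arrays (mean difference 0.33), and each OXA array of HTOXAR3 lay below it (-0.05). The difference was not tested, the OXA and untreated arrays overlapped in both lines by this probe, the sign turned within slide 2 in HT29 (-0.03) and within slide 3 in HTOXAR3 (0.03), and without untreated HT29 replicate 3 the HT29 value was 0.02. The probe A_24_P152968 gave 0.01 in HT29 and -0.35 in HTOXAR3, where its OXA and untreated arrays did not overlap.

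For genes of the lists the response of the lines differed by an interaction term of the fit (HTOXAR3 minus HT29, limma BY adjusted p below 0.05). The term was called for 1.01% of all gene names for OXA and 0.135% for adding Curcumin. After OXA, DHRS2 fell less in HTOXAR3 (-1.86) than in HT29 (-2.70; term 0.84). DHRS9 rose in HTOXAR3 (0.67) and fell in HT29 (-0.66; term 1.32). STRA6 rose in HTOXAR3 (1.14) and differed by 0.08 in HT29 (term 1.06). The epithelial marker VIL1 differed by 0.23 in HTOXAR3 and rose by 1.06 in HT29 (term -0.82). When Curcumin was added, HSD17B2 fell in HTOXAR3 (-0.90) and differed by -0.14 in HT29 (term -0.76).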

How the results depend on the processing

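In the 4 comparisons tested, no call was lost or gained when any one of the 6 arrays compared was left out: the genes called ranged from 5 to 5 for the basal difference, 2 to 2 for OXA in HT29, 5 to 5 for adding Curcumin in HT29 and 3 to 3 for OXA plus Curcumin in HT29. With a fit to the compared groups alone, 0 genes were called for OXA and 1 for adding Curcumin in HT29, with fewer arrays to estimate the spread, and of all gene names 1258 in place of 4177 were called for the basal difference, 1338 in place of 5774 for OXA, 16 in place of 2002 for adding Curcumin and 2056 in place of 6724 for OXA plus Curcumin in HT29, and 592 in place of 3709, 223 in place of 3198 and 3013 in place of 6322 for the same treatments in HTOXAR3. By Benjamini-Hochberg adjustment AKR1B10 was also called for OXA plus Curcumin in HT29 (adjusted p = 0.0429), and with the mean of all probes AKR1C4 was not (adjusted p = 0.0765). With a fold change above 2, 0 members were called for OXA in HT29, and 220 (adding Curcumin in HT29) to 1369 (OXA plus Curcumin in HT29) names in the 7 comparisons. Benjamini-Hochberg adjustment gave 3702 names for adding Curcumin in HT29, 5125 for it in HTOXAR3 and 5998 for OXA in HTOXAR3. Leaving out 1 array took the names called for adding Curcumin to as few as 1210 in HT29 (without OXA plus Curcumin replicate 1) and 1968 in HTOXAR3 (without OXA plus Curcumin replicate 3). The AKR1C4 probe A_23_P149926 on its own, tried after seeing the data, turned the value of AKR1C4 to -0.001 for adding Curcumin and -0.04 for OXA plus Curcumin in HT29. With the replicate number as a block, which pairs arrays that the labels do not describe as paired, the counts were 5, 2, 5 and 3, as in the fit without it, and AKR1C1 gave 3.03 (adjusted p = 1.91e-05) for adding Curcumin in HT29. The median of all names was -0.194 for OXA in HTOXAR3 with the processed signal scaled to the 75th percentile, against 0.009 as reported and -0.008 with normexp scaled the same way, whose lowest median was -0.166 (OXA plus Curcumin in HTOXAR3, -0.009 as reported), and AKR1C3 after OXA in HT29, not called, ran from -0.09 to 0.04 over the scalings.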
